A study of Mus musculus with 8 samples.

Results

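The NF-κB pathway was followed through 10 of its genes in T cells of the mouse pancreas: Nfkbia, Tnfaip3, Birc3, Nfkbiz, Bcl3 and Gadd45b, which hold back or tune the response, and the subunit genes Nfkb1, Nfkb2, Rel and Relb. The 10 members were taken by symbol from the 32285 features of the count matrices, and all 10 were present. They were measured in 3 populations of T cells (at least 2 unique molecular identifiers, UMIs, over 6 T cell receptor complex genes). CD4-gated cells had at least 1 UMI of Cd4 and none of Cd8a or Cd8b1 (27344 cells), CD8-gated cells the reverse (22453 cells), and Foxp3-positive cells at least 1 UMI of Foxp3 (2599 cells). The series comprised 8 single-cell 3′ libraries with 80470 cell barcodes, made from CD45+ CD3+ TCRβ+ cells sorted out of the pancreas of NOD mice, a strain with spontaneous autoimmune diabetes. The labels describe every library as coming from diabetic females aged 3 to 4 months (3 to 5 months in the protocol). Of the 2 untreated libraries, harvested on day 1, the active one was from mice whose glucose exceeded 600 mg/dl and the onset one from mice at 250 mg/dl. The other 6 came from mice of 200 to 300 mg/dl given vehicle (30% ethanol, 5% Tween 20, 65% PEG300) or PPCA, the combination of nutlin-3 (50 mg/kg), an inhibitor of the p53 antagonist MDM2, and MK-1775 (25 mg/kg), an inhibitor of the cell cycle kinase WEE1. Each of these arms had 1 library named for day 2, 1 for day 3 and 1 for day 4. Dosing was daily, and mice were taken on the day that followed the last dose. The study asked how such dosing, meant to act on autoreactive T cells, alters T cell subsets and their expression. The labels do not give the number of mice per library or say whether mice were pooled, so p-values here measure the spread between libraries, which may be technical in part.

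NF-κB proteins are dimers of subunits encoded by Nfkb1 (p50), Nfkb2 (p52), Rela, Rel and Relb. In a resting T cell most dimers are held in the cytoplasm by inhibitors such as IκBα, the product of Nfkbia. Signals from the T cell receptor, costimulatory receptors and tumour necrosis factor receptors lead to degradation of IκBα and let the dimers enter the nucleus. Several of the genes then transcribed act back on the pathway. Nfkbia restores the inhibitor, Tnfaip3 encodes the ubiquitin-editing enzyme A20, and Birc3 encodes cIAP2, a ubiquitin ligase of the tumour necrosis factor receptor complex. Nfkbiz and Bcl3 encode nuclear IκB proteins that bind p50 or p52 dimers and modify their output. Gadd45b encodes a stress-inducible protein that can restrain JNK signalling. In regulatory T cells, which are marked by Foxp3, Rel has a role in their development.

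The κB consensus is the short sequence to which these dimers bind. Promoter sequences from RefSeq (build GRCm38.p6), from 250 bases before to 50 after a gene's start, were found for 7 of the 10 members. Nfkb1, Relb and Nfkbiz were not matched. The 150 bases before the start are printed for the 4 matched members with a match to the κB consensus there. They lie at chr12:55492648-55492797 on the minus strand (Nfkbia), chr10:19015411-19015560 on the minus strand (Tnfaip3, first of 2 annotated starts), chr11:23770970-23771119 on the minus strand (Rel) and chr19:46304587-46304736 on the plus strand (Nfkb2, first of 3 starts). Each stretch ends 1 base before the annotated start. The build behind the count matrices is not stated, so these positions are those of RefSeq only. Capitals mark matches to the κB consensus on either strand, and a run longer than 10 bases holds overlapping matches.
Nfkbia: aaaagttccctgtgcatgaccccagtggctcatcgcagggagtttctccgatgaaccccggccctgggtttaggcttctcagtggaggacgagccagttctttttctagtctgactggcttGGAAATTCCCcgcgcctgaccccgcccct
Tnfaip3: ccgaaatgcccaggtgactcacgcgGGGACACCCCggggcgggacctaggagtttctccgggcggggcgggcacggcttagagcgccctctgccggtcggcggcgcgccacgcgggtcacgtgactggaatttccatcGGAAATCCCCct
Rel: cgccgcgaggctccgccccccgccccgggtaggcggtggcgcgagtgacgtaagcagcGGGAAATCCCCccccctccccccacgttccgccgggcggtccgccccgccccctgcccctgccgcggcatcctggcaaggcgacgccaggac
Nfkb2: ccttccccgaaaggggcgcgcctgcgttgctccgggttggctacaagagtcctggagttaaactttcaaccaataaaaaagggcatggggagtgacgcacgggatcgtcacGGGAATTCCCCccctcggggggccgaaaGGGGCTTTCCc

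The match in Nfkbia began 29 bases before the start, those in Tnfaip3 125 and 12 bases before, the overlapping pair in Rel 92 and 91 bases before, and those in Nfkb2 39, 38 and 11 bases before. Bcl3 had 1 match, which began 2 bases after the start base, and the windows of Birc3 and Gadd45b had none. Of the 7 members with a window, 5 held a match in at least 1 of their windows, against 9.55% of the 26994 genes with a window of the same length. A match describes the letters only.

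The T cells numbered 6182 to 11550 per library, and their summed UMIs per library were 12373208 to 24620883 in the CD4 gate, 10315711 to 22821716 in the CD8 gate and 1225664 to 2222462 in Foxp3-positive cells. Levels are given as UMIs per 1000000 UMIs of the summed population (CPM). At least 23 UMIs lay behind each member's value, and intervals given below cover counting error only. The 6 T cell receptor complex genes summed to 5210 to 7583 CPM in every population and library. Summed markers of B cells reached at most 26.3 CPM and those of NK cells at most 1.8 CPM, with both NK genes at 0 in some libraries. The 5 myeloid markers summed to 112 to 198 CPM, and 10 pancreas genes to 6.3 CPM (active, CD4-gated) to 270 CPM (vehicle day 3, Foxp3-positive). The 6 regulatory T cell markers summed to 2106 to 2878 CPM in Foxp3-positive cells and 241 to 524 CPM in the CD4 gate. No pair of libraries shared more than 0.431% of the smaller library's barcodes. Although the labels give female mice only, Xist was at 398 to 565 CPM in CD4-gated cells of the active, onset, PPCA day 2 and vehicle day 4 libraries. In the other 4 libraries it was at or below 0.885 CPM, and 4 Y-linked genes summed to 197 to 289 CPM. The 10 early response genes, a class that also reacts to tissue handling, summed on day 4 to 4671 CPM with vehicle and 7925 CPM with PPCA, and to 1200 to 2720 CPM in the 6 other libraries (CD4-gated cells). Scaling matters for levels: with library totals alone the median log2 fold change of all genes between day 4 and days 2 and 3 was −0.17 in CD4-gated cells, while the fitted fold changes below use TMM scaling, with which it was −0.01.

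Day 4 stood apart from the other harvest days in most members, Tnfaip3 first among them. Tnfaip3 in CD4-gated cells was at 38.4 CPM in the active, 95.4 CPM in the onset, 63.9 and 77.9 CPM in the vehicle libraries of days 2 and 3, and 39.3 and 52.5 CPM in the PPCA libraries of those days. On day 4 it was at 657 CPM with vehicle and 938 CPM with PPCA. Both day 4 libraries thus lay well above the 6 others, with no overlap. CD8-gated cells gave the same picture: Tnfaip3 stood at 481 CPM (vehicle) and 685 CPM (PPCA) on day 4, against 34.6 to 107 CPM in the 6 other libraries. In Foxp3-positive cells the day 4 values were 801 and 1363 CPM and the others 73.5 to 174 CPM. In a model with harvest day and treatment, the log2 fold change of Tnfaip3 between day 4 and the mean of days 2 and 3 was 3.99 ± 0.24 (SE) in CD4-gated, 3.60 ± 0.19 in CD8-gated and 3.23 ± 0.19 in Foxp3-positive cells (edgeR quasi-likelihood, adjusted p = 0.00022, 0.00011 and 7.9e-08). Without the PPCA library of day 4 the value of Tnfaip3 in CD4-gated cells was 3.35, and without the vehicle library of day 4 it was 4.55.

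**Figure D1:**
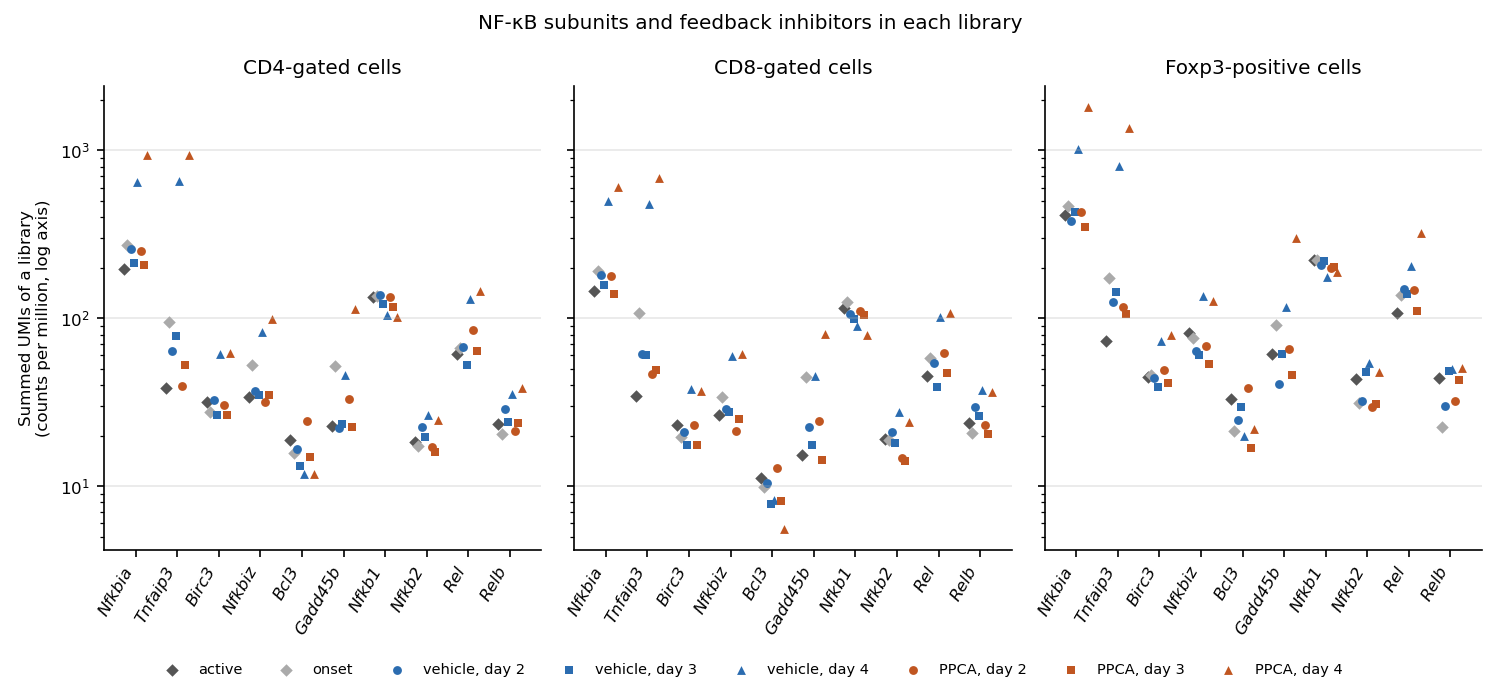
Level of each member in each of the 8 libraries, in CPM on a log axis, in CD4-gated, CD8-gated and Foxp3-positive cells. Diamonds are the active and onset libraries, blue and orange symbols the vehicle and PPCA libraries of days 2 (circle), 3 (square) and 4 (triangle); the day 4 triangles of Tnfaip3 stand at 481 to 1363 CPM, above all other symbols of that gene.

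Nfkbia in CD4-gated cells was at 197 CPM (active), 274 CPM (onset), 257 and 212 CPM (vehicle, days 2 and 3) and 251 and 207 CPM (PPCA, days 2 and 3). Its day 4 levels were 647 CPM with vehicle and 941 CPM with PPCA, again clear of the other libraries. In CD8-gated cells Nfkbia ran from 140 to 190 CPM in the 6 other libraries and was at 502 and 601 CPM on day 4. Foxp3-positive cells held the highest levels, 349 to 465 CPM in the 6 libraries and 1019 and 1809 CPM on day 4. The log2 fold changes were 1.93 ± 0.15, 1.92 ± 0.13 and 1.90 ± 0.18 in the 3 populations (adjusted p = 0.00046, 0.00025 and 3.6e-06, edgeR). In each population the PPCA library of day 4 exceeded the vehicle library of that day.

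Of the other feedback genes, Birc3, Nfkbiz and Gadd45b were higher on day 4 and Bcl3 did not pass. Birc3 in CD4-gated cells lay between 26.4 and 32.6 CPM in the 6 libraries and at 61.3 (vehicle) and 61.7 CPM (PPCA) on day 4, a log2 fold change of 1.24 ± 0.09 (adjusted p = 0.00043, edgeR). Nfkbiz lay between 31.7 and 52.8 CPM and reached 82.7 and 98.6 CPM (1.55 ± 0.12, adjusted p = 0.00046, edgeR). Both of these genes kept the day 4 libraries apart from the rest. Gadd45b, in contrast, overlapped: the vehicle library of day 4 had 45.8 CPM and the onset library 52.3 CPM, while the PPCA library of day 4 had 113 CPM. Against days 2 and 3 alone (22.1 to 33.1 CPM) its log2 fold change was 1.70 ± 0.24 (adjusted p = 0.0057, edgeR). Bcl3 was at 11.8 and 11.9 CPM on day 4 and at 13.1 to 24.5 CPM elsewhere in CD4-gated cells, a log2 difference of −0.35 ± 0.16 that did not pass (adjusted p = 0.19, edgeR). In CD8-gated and Foxp3-positive cells Birc3 (1.08 and 0.92), Nfkbiz (1.42 and 1.20) and Gadd45b (1.82 and 1.96) were also higher on day 4, each past the threshold, though DESeq2 did not call Birc3 in Foxp3-positive cells (adjusted p = 0.091). The value of Gadd45b in Foxp3-positive cells was 1.25 without the PPCA library of day 4.

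Among the subunits, Rel was higher on day 4 and Nfkb1 was not. Rel, which encodes the subunit c-Rel that is prominent in lymphocytes, lay between 52.9 and 85.5 CPM in the 6 libraries of CD4-gated cells and at 130 CPM (vehicle) and 144 CPM (PPCA) on day 4. The groups did not overlap, and the log2 fold changes were 1.20 ± 0.10, 1.23 ± 0.08 and 1.05 ± 0.18 in CD4-gated, CD8-gated and Foxp3-positive cells (adjusted p = 0.00062, 0.00027 and 0.0015, edgeR). Without the PPCA library of day 4, Rel no longer passed in Foxp3-positive cells (0.59). Relb and Nfkb2, the subunits of the non-canonical branch of the pathway, changed less: Relb by 0.76 ± 0.13 and Nfkb2 by 0.61 ± 0.12 in CD4-gated cells, and by 0.75 ± 0.12 and 0.79 ± 0.12 in CD8-gated cells. Nfkb2 was at 26.5 (vehicle) and 24.8 CPM (PPCA) on day 4 and 15.9 to 22.4 CPM in the 6 other libraries of CD4-gated cells, so the groups were separate but close. Its call in CD4-gated cells (adjusted p = 0.020, edgeR) was lost without the vehicle or the PPCA library of day 3, without the PPCA library of day 4 and with scaling by library totals only (0.45). That of Relb (adjusted p = 0.010, edgeR) was lost without the PPCA library of day 3. In Foxp3-positive cells neither passed (Nfkb2 0.64, adjusted p = 0.071; Relb 0.51, adjusted p = 0.13, edgeR). Nfkb1 was at 105 and 101 CPM on day 4 and 117 to 137 CPM elsewhere in CD4-gated cells, a log2 difference of −0.14 ± 0.10 (adjusted p = 0.40, edgeR). Rela, which encodes the p65 subunit and is not among the 10 members, differed by 0.16 ± 0.12 in CD4-gated cells (adjusted p = 0.40, edgeR).

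**Figure D2:**
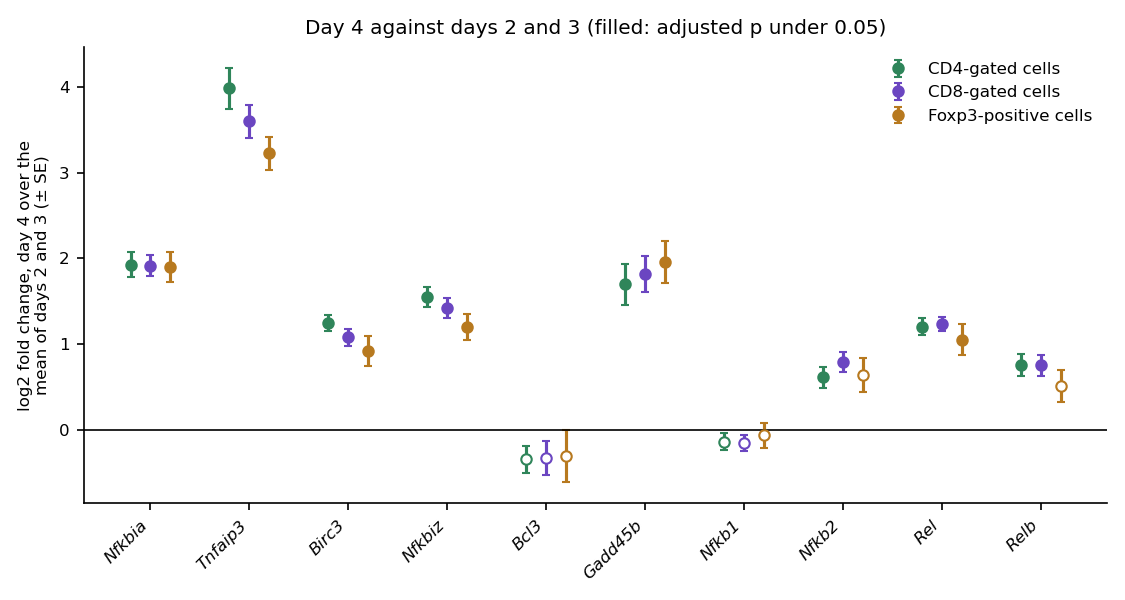
Fitted log2 fold change of each member between day 4 and the mean of days 2 and 3, with its standard error, in the 3 populations (6 libraries each). Filled points passed an adjusted p of 0.05; Tnfaip3 stands at 3.23 to 3.99, and Nfkb1 and Bcl3 are open points at or below 0.

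In total 8 of 10 members were higher on day 4 in CD4-gated cells, where 8.63% of all genes tested were, 8 of 10 in CD8-gated cells (9.25% of all genes) and 6 of 10 in Foxp3-positive cells (4.45% of all genes). No member was lower in any of the 3. Their median log2 fold change was 1.22, 1.15 and 0.98, beside −0.01 for all genes in each population. With library totals in place of TMM, 7, 8 and 6 members were higher, while calls over all genes turned from 1030 higher and 663 lower to 635 higher and 1303 lower in CD4-gated cells. In CD8-gated cells they turned from 1109 higher and 850 lower to 727 and 1891, and in Foxp3-positive cells from 393 and 129 to 245 and 178. Early response genes moved alongside: 7 of 10, 9 of 10 and 8 of 9 tested were higher on day 4. Atf3, a stress-induced transcription factor, was higher by 5.33 and Dusp1, a phosphatase of MAP kinases, by 2.17 in CD4-gated cells. The part of tissue handling in the members' change was not tested. Day 4 cannot be told apart from the mice, harvest and sort of that day. With the sex read from Xist as a further factor, 8, 8 and 7 members were higher, in fits that called 1496, 1950 and 622 genes higher. Bcl3 was then lower in CD8-gated cells (−0.44), as were 1770 of 11994 genes.

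Other genes of the pathway went in both directions on day 4. Of 17 adaptors and kinases, 4 were higher and 1 lower in both CD4-gated and CD8-gated cells, and 4 were higher and none lower in Foxp3-positive cells. Bcl10 and Malt1, which carry the T cell receptor signal to the pathway, were higher by 1.17 and 0.63 in CD4-gated cells, and Birc2, the ligase cIAP1, by 1.33 (adjusted p = 0.00056, 0.011 and 0.0032, edgeR). Of 10 ligands and receptors none was higher, and Cd27, a costimulatory receptor, was lower by 0.93, 0.82 and 0.72 in the 3 populations. Among 10 other subunits and brakes, Nfkbid, a further nuclear IκB gene, was higher by 0.88 in CD4-gated and 0.86 in CD8-gated cells, and Otulin, a deubiquitinase of linear chains, by 0.57 and 0.55. Nfkbie, which encodes the inhibitor IκBε, was lower by 0.72 in CD8-gated cells (adjusted p = 0.0094, edgeR). That list had 2 genes higher and none lower in CD4-gated, 2 higher and 1 lower in CD8-gated and 1 higher and none lower in Foxp3-positive cells. Of 10 other target genes, 2 were higher and 2 lower in CD4-gated cells and 4 higher and 2 lower in CD8-gated cells, and 3 of 9 tested were higher and none lower in Foxp3-positive cells. Among them Zc3h12a, which encodes the RNase regnase-1, showed the smallest p, with a log2 fold change of 2.06 in CD4-gated, 2.04 in CD8-gated and 1.62 in Foxp3-positive cells. Irf1, an interferon regulatory factor gene, was higher by 0.71, 0.64 and 0.88, and Traf3ip3 was lower by 0.41 in CD4-gated cells. Medians of these 4 lists on day 4 ran from −0.30 to 0.39.

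For Nfkbia and Tnfaip3, both the share of cells with a UMI and the UMIs per such cell were higher in the day 4 libraries than in the 6 others. After each cell was thinned to 2000 UMIs, Nfkbia was found in 62.4% of CD4-gated cells of the vehicle library of day 4 (Clopper-Pearson 95% interval 60.9% to 63.8%, counting error only) and in 66.5% of the PPCA library (64.7% to 68.2%). In the 6 other libraries it was found in 28.3% to 37.8%. Tnfaip3 was found in 67.4% (66.0% to 68.7%) and 77.8% (76.3% to 79.3%) on day 4, against 7.60% to 16.5% in the others. A CD4-gated cell with a Tnfaip3 UMI held on average 2.03 (vehicle) and 2.54 UMIs (PPCA) of it on day 4, and 1.13 to 1.20 in the other libraries. Without thinning, which leaves deeper cells more chances, the shares of Tnfaip3 were 88.6% and 90.4% on day 4 and 13.1% to 33.9% elsewhere. Nfkb1, after thinning, was found on day 4 in 814 of 4521 cells of the vehicle library and in 520 of 2936 cells of the PPCA library (17.7%), and in 19.6% to 22.4% of the 6 other libraries. Thus day 4 cells held UMIs of more members at once: at least 3 of the 10 were found in 35.8% and 44.2% of CD4-gated cells on day 4 and in 7.02% to 11.1% elsewhere. In Foxp3-positive cells these shares were 55.1% and 67.9%, against 17.4% to 30.3%. As a measure of free RNA, the pancreas genes summed in CD4-gated cells to 39.8 (vehicle) and 63.4 CPM (PPCA) on day 4 and to 6.3 to 231 CPM in the 6 other libraries. The part of free RNA in the shares was not tested. Cell by cell, pairs of members were correlated within a library by the presence or absence of a UMI after thinning. These correlations were weak (medians over the libraries of at most 0.076 in CD4-gated cells), and the part of sparse counts in this was not tested.

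**Figure D3:**
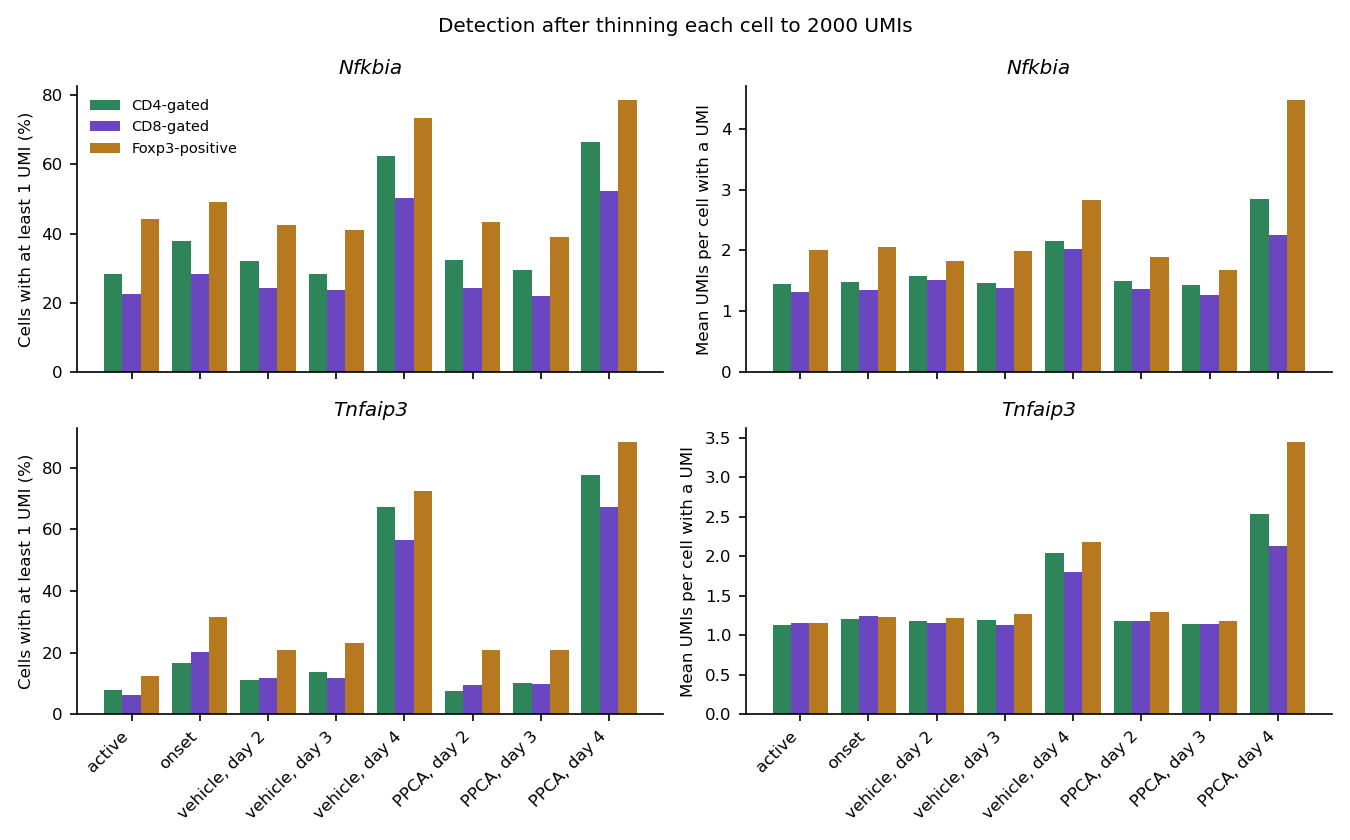
Share of cells with at least 1 UMI (left) and mean UMIs per such cell (right) for Nfkbia and Tnfaip3 in each library after thinning to 2000 UMIs per cell, in the 3 populations. Within each population the day 4 bars stand above the others; Tnfaip3 was found in 67.4% and 77.8% of CD4-gated cells on day 4.

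The day 4 change of Tnfaip3 was smaller in CD8-gated than in CD4-gated cells, by −0.35 ± 0.06 on the log2 scale (adjusted p = 0.023, edgeR interaction term). This was 1 of 10 members, and 0.497% of all genes tested had such a difference. The call was lost without the vehicle library of day 3, the PPCA library of day 3 or the PPCA library of day 4, with values from −0.26 to −0.41. For the 9 other members the difference ran from −0.15 (Birc3) to 0.18 (Nfkb2), and none passed.

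For PPCA against vehicle, the members gave no call in any population. In CD4-gated cells none of 10 passed (0% of all genes tested), in CD8-gated cells none (0.0167% of all genes) and in Foxp3-positive cells none (0.125% of all genes), by edgeR with harvest day as a factor. At an unadjusted p under 0.05 the numbers of members were 1, 2 and 1, beside 813 of 11938, 986 of 11994 and 564 of 8824 genes tested. DESeq2 and limma-voom also called no member. Median log2 fold changes of the members were −0.09, −0.13 and 0.03, beside 0.00 for all genes in CD4-gated and CD8-gated cells. None of the 5 other lists had a gene past the threshold either. These 6 libraries leave 2 residual degrees of freedom, and the SE of a member ran from 0.08 to 0.27.

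Day by day, Tnfaip3 went in opposite directions. In CD4-gated cells it was lower with PPCA on day 2 (39.3 against 63.9 CPM) and on day 3 (52.5 against 77.9 CPM), and higher on day 4 (938 against 657 CPM). The log2 ratios were −0.70 (95% counting interval −0.85 to −0.55), −0.57 (−0.71 to −0.44) and 0.51 (0.48 to 0.55), with 1 library in each arm. CD8-gated cells had ratios of −0.40, −0.31 and 0.51. Over the 3 days the fitted log2 fold change of Tnfaip3 was −0.32 ± 0.23 in CD4-gated and −0.14 ± 0.19 in CD8-gated cells (adjusted p = 0.80 and 0.88, edgeR). Without the day 4 libraries it was −0.74 (adjusted p = 0.0011, edgeR) and −0.48 (adjusted p = 0.033, edgeR). These fits of fewer libraries called 184 of 11673 and 181 of 11557 genes, against 0 and 2 genes in the main fits. Without harvest day in the model the sign turned, to 0.33 and 0.35. In Foxp3-positive cells the value was 0.08 ± 0.19, and −0.33 without day 4. Within a day, the 2 arms differed in Xist on days 2 and 4 and not on day 3. With the sex read from Xist as a further factor, the value of Tnfaip3 was −0.33 in CD4-gated and −0.15 in CD8-gated cells (adjusted p = 0.36 and 0.54, edgeR). Early response genes summed to 1200 CPM with PPCA and 2720 CPM with vehicle on day 2, 2428 and 2699 CPM on day 3 and 7925 and 4671 CPM on day 4 in CD4-gated cells, the same order as Tnfaip3 on each day, and their part was not tested.

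Gadd45b had the highest member log2 fold change under PPCA in CD4-gated cells, 0.55 ± 0.24 (adjusted p = 0.73, edgeR). Its levels there were 33.1 against 22.1 CPM on day 2, 22.6 against 23.6 CPM on day 3 and 113 against 45.8 CPM on day 4 (PPCA against vehicle). The gap of day 4 was present in CD8-gated cells (80.2 against 45.4 CPM) and Foxp3-positive cells (300.2 against 117 CPM), and day 3 showed none in the same direction. The 6 regulatory T cell markers summed in the CD4 gate to 521 against 336, 337 against 364 and 524 against 274 CPM on the 3 days. In Foxp3-negative CD4-gated cells, where these markers summed on day 4 to 426 against 222 CPM, Gadd45b was then at 104 against 43.8 CPM. Its fold change passed in CD4-gated cells with no low-count filter (0.54; 199 of 19598 genes called) and in Foxp3-positive cells with sex as a factor (0.55; 107 of 8824). Nfkb2 was lower with PPCA on all 3 days in each population, for example at 17.2 against 22.4, 15.9 against 19.7 and 24.8 against 26.5 CPM in CD4-gated cells, though the counting interval spanned 0 on day 4 in all 3 populations and on day 2 in Foxp3-positive cells. Its log2 fold changes were −0.34 ± 0.12, −0.43 ± 0.12 and −0.35 ± 0.19, none past the threshold (adjusted p = 0.69, 0.49 and 0.81, edgeR), and in CD8-gated cells it passed only with sex as a factor (−0.44; 344 of 11994 genes called). Rel had the opposite sign in CD4-gated cells, with 85.5 against 67.2, 63.6 against 52.9 and 144 against 130 CPM and a fitted value of 0.17 ± 0.10 (adjusted p = 0.77, edgeR). The PPCA effect did not differ past the threshold between CD8-gated and CD4-gated cells for any member (0.016% of all genes did). The lowest p was that of Gadd45b (−0.41 ± 0.08, adjusted p = 0.19, edgeR). An unadjusted p under 0.05 was found for 5 members, beside 666 of 12478 genes tested, while DESeq2 called no member. Without the day 2 libraries, Nfkbia (−0.21) and Gadd45b (−0.39) passed, in a fit that called 79 of 12381 genes.

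**Figure D4:**
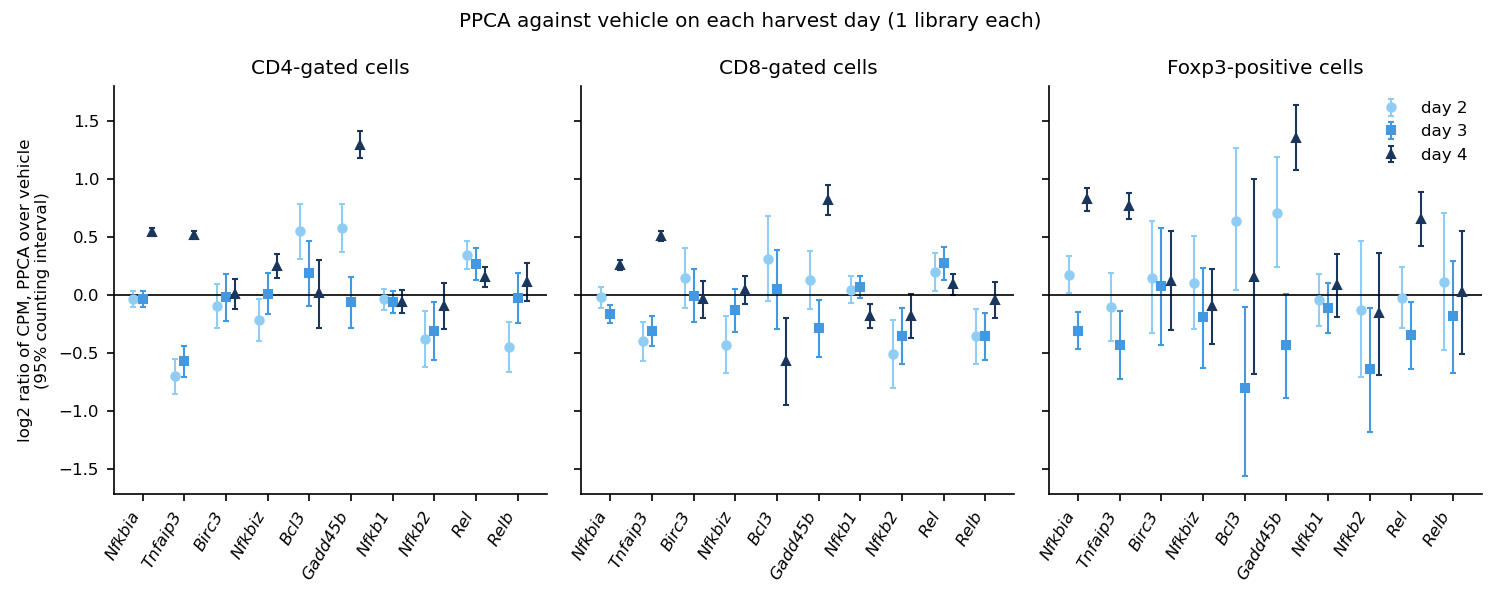
Log2 ratio of CPM between the PPCA and vehicle libraries of each harvest day for the 10 members in the 3 populations, with 95% counting intervals (1 library in each arm). Tnfaip3 lies below 0 on days 2 and 3 and above 0 on day 4 in CD4-gated and CD8-gated cells, and Gadd45b reaches 1.30 on day 4 in CD4-gated cells.

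Between the active and onset libraries, Tnfaip3 was lower in active disease by 2-fold or more in all 3 populations, and Gadd45b met that rule in CD4-gated cells only. There was 1 library of each and hence no test. Genes reaching 50 CPM in either library were considered, and those differing 2-fold or more were counted. In CD4-gated cells Tnfaip3 was at 38.4 (active) and 95.4 CPM (onset), a log2 ratio of −1.31 (counting interval −1.44 to −1.19). Gadd45b was at 22.7 and 52.3 CPM, a log2 ratio of −1.20 (−1.36 to −1.04). These were 2 of the 6 members with enough CPM, both lower in active, where 0.397% of genes with enough CPM were. In CD8-gated cells Tnfaip3 alone counted, at 34.6 and 107 CPM (1 of 4 members, 1.38% of genes), and Gadd45b, at 15.3 and 44.6 CPM, had too few CPM to count. In Foxp3-positive cells Tnfaip3 was at 73.5 and 174 CPM (1 of 6 members, 0.762% of genes). Gadd45b had enough CPM there, at 61.2 and 91.4 CPM, and did not count (log2 ratio −0.58). Nfkbiz was at −0.64 in CD4-gated cells. Nfkbia was lower in active by less, with log2 ratios of −0.48, −0.39 and −0.18 in the 3 populations. Nfkb1 was alike in both, at 133 and 136 CPM in CD4-gated cells. Relb, Birc3 and Bcl3 had ratios of 0.20, 0.20 and 0.26 in CD4-gated cells, on the other side of 0, and Relb was at 0.96 in Foxp3-positive cells (43.9 and 22.5 CPM, too few to count). Early response genes summed to 1891 (active) and 2588 CPM (onset) in CD4-gated cells and 1031 and 2031 CPM in CD8-gated cells, and their part was not tested.

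CD8-gated cells held less of most members than CD4-gated cells of the same library. With library as a block, 7 of 10 members were lower in CD8-gated cells, as were 22.3% of all genes tested, and none was higher. Bcl3 had the largest log2 difference among them, −0.73 ± 0.06 (adjusted p = 6.4e-08, edgeR), and was lower in CD8-gated cells in 8 of 8 libraries. Its levels had a median of 9.1 CPM (5.6 to 12.9) in CD8-gated and 15.3 CPM (11.8 to 24.5) in CD4-gated cells. Birc3 (−0.54 ± 0.04), Nfkbia (−0.45 ± 0.03), Nfkbiz (−0.45 ± 0.04), Rel (−0.34 ± 0.03) and Nfkb1 (−0.20 ± 0.03) were likewise lower in 8 of 8 libraries, and Gadd45b (−0.29 ± 0.06) in 7 of 8. These counts of libraries rest on CPM without TMM, and how many of all genes had such an order was not counted. Nfkbia was at 179 CPM (140 to 601) in CD8-gated and 254 CPM (197 to 941) in CD4-gated cells, with ranges that overlapped between libraries although the order held within each. Relb (0.06 ± 0.04), Nfkb2 (−0.0003 ± 0.04) and Tnfaip3 (−0.14 ± 0.06) did not pass (adjusted p = 0.22, 0.997 and 0.093, edgeR). Tnfaip3 passed under 5 of the other settings, among them scaling by library totals only (−0.18), and was at −0.01 without both day 4 libraries. The 7 calls over members were also 7 without both day 4 libraries. The median of the members was −0.32, beside 0.00 for all genes. Calls over all genes numbered 2907 higher and 2831 lower, and 2204 higher and 3704 lower with library totals only.

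Of 10 ligands and receptors, 5 were lower and 2 higher in CD8-gated cells, beside 2831 lower and 2907 higher of all 12690 genes tested. Of 17 adaptors and kinases 5 were lower and 4 higher, of 10 other subunits and brakes 3 and 3, and of 10 other target genes 2 and 4, shares not set apart from those of all genes by any test. Cd40lg, the ligand by which helper T cells stimulate B cells, was lower by 4.04, Tnfrsf4 (OX40, a costimulatory receptor) by 2.31 and Lta (lymphotoxin alpha) by 0.69. Among adaptors Traf1 was higher by 0.53 and Traf5 was lower by 0.43, among other target genes Ier3 was higher by 3.42 and Icam1, an adhesion molecule, by 1.29, and Rela did not pass (−0.02 ± 0.04, adjusted p = 0.70, edgeR). Early response genes were lower in CD8-gated cells for 8 of 10, with Junb at −0.82 and Dusp1 at −0.91, and their part in the members' difference was not tested.

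In Foxp3-positive cells all 10 members were higher than in Foxp3-negative CD4-gated cells of the same library, where 18.1% of all genes tested were. Gadd45b had the largest log2 difference, 1.06 ± 0.07 (adjusted p = 3.0e-14, edgeR), with a median of 63.8 CPM (40.4 to 300.2) in Foxp3-positive cells. Rel was higher by 0.83 ± 0.06 (adjusted p = 8.6e-13, edgeR), at 143 CPM (108 to 322). Nfkb2 followed with 0.82 ± 0.09, Nfkbia with 0.66 ± 0.05, Tnfaip3 with 0.63 ± 0.09, Nfkbiz with 0.58 ± 0.08, Nfkb1 with 0.56 ± 0.04, Bcl3 with 0.55 ± 0.10, Relb with 0.41 ± 0.10 and Birc3 with 0.31 ± 0.07. By CPM, without TMM, each member was higher in 8 of 8 libraries, by a log2 ratio as small as 0.06 (Relb) and 0.18 (Bcl3). How many of all genes were so was not counted. Their median was 0.60, beside −0.03 for all genes. Unlike the day 4 pattern, Nfkb1 took part: it was at 177 to 222 CPM in Foxp3-positive and 96.9 to 133 CPM in Foxp3-negative cells, without overlap. Rela did not pass (0.11 ± 0.08, adjusted p = 0.29, edgeR).

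**Figure D5:**
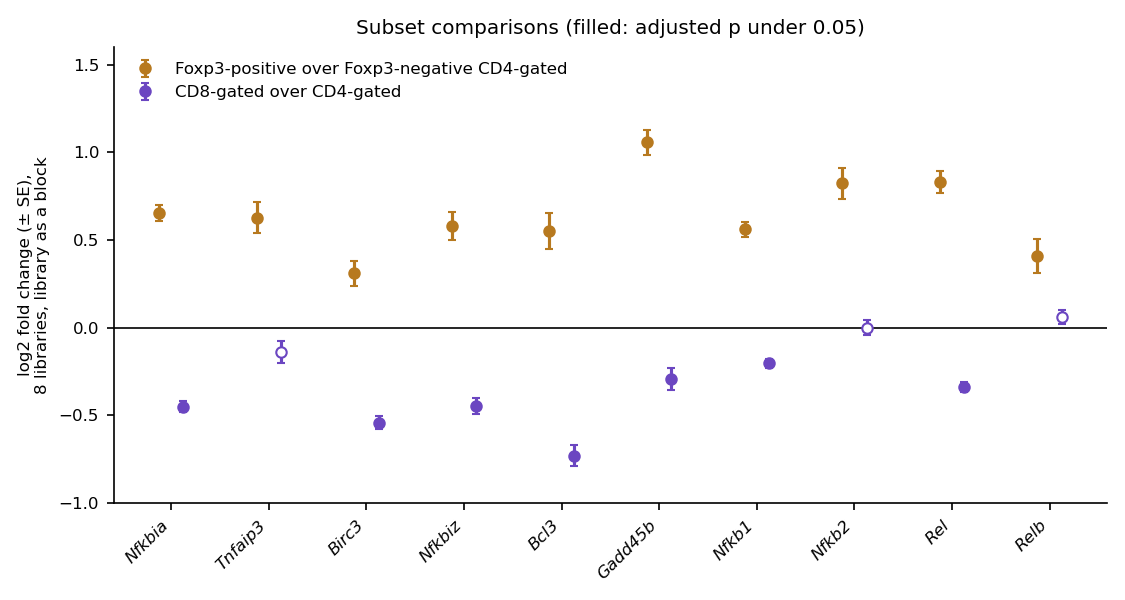
Fitted log2 fold change (with SE) of each member in Foxp3-positive against Foxp3-negative CD4-gated cells and in CD8-gated against CD4-gated cells, over 8 libraries with library as a block. Filled points passed an adjusted p of 0.05; all 10 Foxp3 points are filled and above 0, and 7 CD8 points are filled and below 0.

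The count of 10 held in Foxp3-positive cells that were also in the CD4 gate, with cells thinned to 2000 UMIs and without both day 4 libraries. Without library as a block 4 members passed. With library totals alone calls over all genes turned from 2210 higher and 2531 lower to 4777 higher and 875 lower, and the members' median became 0.84. Foxp3-positive cells held fewer UMIs, with medians of 3159 to 5269 per cell against 3851 to 6169 in the Foxp3-negative cells. They carried 91.7 to 224 CPM of Cd8a and Cd8b1. Of the 225 to 486 Foxp3-positive cells per library, 99 to 207 were in the CD4 gate, 21 to 55 in the CD8 gate and the rest in neither. Of the 10 early response genes, 2 were higher and 2 lower in Foxp3-positive cells. Of 10 ligands and receptors, 6 were higher and 3 lower. Those with the smallest p, all higher, were Tnfrsf9 (4-1BB) at 3.25, Tnfrsf4 at 3.34 and Tnfrsf18 (GITR, also used here as a regulatory T cell marker) at 1.32. Of 17 adaptors and kinases, 3 were higher, among them Traf1 at 1.17, and 5 lower. The survival genes Bcl2a1b (1.52) and Bcl2a1d (1.45) were higher too, but near-identical copies of them exist, so how reads were divided among them is uncertain.

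With the members left out, 5267 genes averaging at least 20 CPM were compared with the members' mean over the 16 CD4-gated and CD8-gated sums. Genes of the other pathway lists stayed among them. The closest in pattern were Nr4a1 (Pearson r = 0.97), Pim1 (0.95), Crybg1 (0.95), Csrnp1 (0.94) and Skil (0.94). These sums share libraries and day, so r is a description. Nr4a1, an immediate early gene of T cell receptor signalling, was at 142 (vehicle) and 116 CPM (PPCA) on day 4 in CD4-gated cells and 17.7 to 42.4 CPM in the others. Pim1, a kinase gene induced by cytokines, was at 464 and 518 CPM on day 4 and 111 to 188 CPM elsewhere. Within the 8 CD4-gated sums the closest were Odc1, Sys1, Skil, Ndel1 and Rbm18 (0.98 to 0.99), and within the 8 CD8-gated sums Dnttip2, Nr4a1, Crybg1, Odc1 and Cd28 (0.96 to 0.98). Of the members themselves, Nfkbia followed the mean of the other 9 most closely over the 16 sums (r = 0.95). Nfkb1 (−0.35) and Bcl3 (−0.08) had negative values over the 16 sums. Within the 8 sums of a subset the r of Nfkb1 with the other members was −0.76 (CD4-gated) and −0.71 (CD8-gated), and that of Bcl3 −0.61 and −0.54. All these r were taken on CPM without TMM, and the r of all genes was not set beside them. The main fits, which used TMM, called neither Nfkb1 nor Bcl3 lower on day 4.

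In the authors' deposited table of genes that mark 7 clusters, members appeared in 4. The cluster named CD4 Th0, with 179 genes, listed 7 of the 10, among them Nfkbia (log2 fold change 0.94) and Nfkb1 (0.83) in the authors' deposited table. CD4 Treg, with 567 genes, also listed 7, with Nfkbia at 0.94, Tnfaip3 at 0.79, Rel at 0.70 and Gadd45b at 0.65 in the authors' deposited table. CD4 Th17 (428 genes) listed Tnfaip3 (0.87) and Nfkbia (0.47), and CD8 TRM TEM (702 genes) listed Tnfaip3 (0.66) and Gadd45b (0.29), per the authors' deposited table. No gene below 0.25 is listed in the authors' deposited table, so absence from a cluster is not a value.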

How the data were processed

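The data were 8 single-cell 3′ libraries. The deposited matrices hold UMI counts by gene and barcode, written by cellranger 6.0.0 per the file headers, and the submitters' processing notes name Cell Ranger 6.1.2 and Seurat. The genome build is not given in the sources used here, nor is the annotation. The authors' deposited marker table gives log2 fold changes and p-values per cluster, and the tool behind it is not stated.

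The members, lists and tests were chosen with earlier results of these data known. Cells needed at least 500 genes and under 10% mitochondrial UMIs, the top-scoring barcodes of Scrublet (scanpy 1.11.5) were removed as doublets (0.8% per 1000 barcodes), and T cells had at most 1 UMI over 6 B and myeloid genes. Counts were summed per library and population and fitted with edgeR 4.0.16 (R 4.3.3; quasi-likelihood, TMM, filterByExpr, two-sided, Benjamini-Hochberg over all genes tested, threshold 0.05). PPCA and day 4 were fitted with harvest day and treatment as factors, and subsets with library as a block. Deviations of the vehicle and PPCA library of a day from their arm means correlated at 0.33 to 0.50 (CD4-gated), 0.36 to 0.55 (CD8-gated) and 0.18 to 0.39 (Foxp3-positive), so day pairs the libraries. The fits were tested on simulated data, where the share of false calls exceeded the nominal 0.05 in each comparison and some changed genes were missed. Alternatives used DESeq2 1.42.0 and limma 3.58.1 among others. Promoters were searched for 3 G, a purine, 2 bases of any kind, 2 pyrimidines and 2 C, on both strands. Named genes were all 10 members, up to 3 per pathway list and comparison past the threshold by smallest p, Rela, and the 5 genes most like the members.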

Additional observations from a re-analysis of the deposited data

Results flagged for a closer look

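The change of Tnfaip3 from days 2 and 3 to day 4 differed between subsets by −0.35 on the log2 scale (CD8-gated minus CD4-gated, adjusted p = 0.023, edgeR interaction term): it was smaller in CD8-gated cells. The call was lost without the vehicle library of day 3, the PPCA library of day 3 or the PPCA library of day 4. Tnfaip3 also differed between days in the direction of PPCA against vehicle. In CD4-gated cells the log2 ratio of the single libraries was −0.70 on day 2, −0.57 on day 3 and 0.51 on day 4, and in CD8-gated cells −0.40, −0.31 and 0.51. The counting interval of each ratio excluded 0, and the difference between the days was not tested.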

How the results depend on the processing

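Members called. For PPCA against vehicle, where no member was called, 1 passed in CD4-gated cells with no low-count filter and 1 each in CD8-gated and Foxp3-positive cells with sex as a further factor; leaving out a day's pair gave 0 to 1 in CD4-gated and CD8-gated cells. The difference in PPCA effect (0 members) gave 1 with no low-count filter and 0 to 2 when a pair was left out, and that in day 4 effect (1 member) 0 to 1 when a library was left out. Without the replicate block, calls fell from 7 to 1 for CD8-gated against CD4-gated cells and from 10 to 4 for Foxp3-positive cells. Birc3 on day 4 in Foxp3-positive cells was not called by DESeq2. Day 4 calls of members were otherwise 6 to 8, 8 and 5 to 7 when a library was left out (CD4-gated, CD8-gated, Foxp3-positive).

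All genes called. PPCA in CD4-gated cells (0) gave 35 by DESeq2, 199 with no filter, 73 with sex and 0 to 184 with a pair left out. PPCA in CD8-gated cells (2) gave 41, 165, 344 and 0 to 181 under the same settings, 0 without doublet removal, 0 with the loose cell filter, 0 with the strict gate, 0 without the replicate block and 4 with library totals only. PPCA in Foxp3-positive cells (11) gave 6 by DESeq2, 95 with no filter, 7 without doublet removal, 0 without the block, 107 with sex and 2 to 91 with a pair left out. Day 4 gave 2562 (no filter), 2677 (sex) and 500 to 2002 (a library left out) in CD4-gated cells; 1304 (DESeq2), 3720 (sex) and 506 to 2459 in CD8-gated cells; and 179 (DESeq2), 935 (sex) and 240 to 724 in Foxp3-positive cells. Without the block the subset comparisons gave 2033 (CD8-gated) and 2283 (Foxp3-positive). The difference in PPCA effect gave 1 (DESeq2), 82 (no filter) and 14 to 79, and that in day 4 effect 22, 178 and 48 to 197. The causes were not tested.

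Signs. Without the replicate block the PPCA value turned for Tnfaip3 (0.33) and Nfkbiz (0.039) in CD4-gated, Nfkbia (0.086) and Tnfaip3 (0.35) in CD8-gated and Bcl3 (0.018) in Foxp3-positive cells. With library totals only it turned for Nfkbiz (0.021, CD4-gated), Nfkbia (0.026) and Birc3 (0.030, both CD8-gated) and Bcl3 (0.022, Foxp3-positive), and without doublet removal for Bcl3 (0.088, Foxp3-positive). Nfkb2 in CD8-gated against CD4-gated cells turned with limma-voom (0.0077), no doublet removal (0.020), no block (0.0036) and thinning (0.026), and Relb with thinning (−0.025). Values that turned when a library or pair was left out ranged as follows. For PPCA against vehicle in CD4-gated cells they were Nfkbia −0.14 to 0.21, Nfkbiz −0.21 to 0.041. For PPCA against vehicle in CD8-gated cells they were Nfkbia −0.22 to 0.079, Tnfaip3 −0.48 to 0.025, Bcl3 −0.36 to 0.052, Birc3 −0.12 to 0.0070, Gadd45b −0.21 to 0.45. For PPCA against vehicle in Foxp3-positive cells they were Nfkbia −0.13 to 0.50, Tnfaip3 −0.33 to 0.35, Nfkb1 −0.14 to 0.0066, Rel −0.24 to 0.31, Relb −0.15 to 0.053, Bcl3 −0.44 to 0.43. For Day 4 against days 2 and 3 in Foxp3-positive cells they were Nfkb1 −0.17 to 0.050, Bcl3 −0.56 to 0.11. For CD8-gated against CD4-gated cells they were Nfkb2 −0.018 to 0.013. The median share of cells with an Nfkbia UMI over libraries moved without thinning, to 57.5% in CD4-gated and 51.9% in CD8-gated cells. Scaling by library totals and leaving out both day 4 libraries were chosen after seeing the data.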
